A study of Ctenopharyngodon idella with 15 samples.

Results

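Of the 40116 genes listed for each gill library, 3 are hypoxia-inducible factor loci by the names given in the paper, and they are described here in all 15 fish. Hypoxia-inducible factor-2 alpha (HIF-2 alpha) is given to 2 loci, CI01000012_01412584_01433078.path1 and CI01000012_01435706_01436086.path1. Hypoxia-inducible factor-4 alpha (HIF-4 alpha) is given to CI01000072_02058184_02067046.path1. The study picked these loci from a cluster of genes with a like trend, lower in 3‰-treated than in 6‰-treated fish, in these same libraries. The difference between salinities and the likeness of the loci to each other are therefore given as descriptions with no test, and a comparison with con that uses the 6‰-treated or 3‰-treated fish is not independent of that choice. All 3 passed the filter on low expression, which kept the 24647 genes with a mean of at least 0.5 FPKM over the 15 fish. FPKM is a fragment count scaled by transcript length and by library size.

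Grass carp of 3 months of age were kept without added salt (con) or at a salinity of 3‰ or 6‰ for 30 days, and gills of 3 fish per group were sequenced. The salt was a commercial sea salt. These are the salinities of the paper, where the labels have 3% and 6%. At each salinity, asymptomatic fish (labelled healthy) and symptomatic fish (labelled with an injured body) were sampled, which gives 5 groups with con. No fish was infected. The sources used here give no strain, sex or genotype and do not say whether the fish of a group shared a tank. The tests compare group means against the spread between these fish. If each salinity had its own tank, salinity and tank cannot be told apart. Per library, 28848 to 30345 genes were above 0, with a summed FPKM of 759044 to 852270. The most similar pair of libraries came from different salinities, symptomatic replicate 1 at 3‰ and symptomatic replicate 1 at 6‰, with a median absolute log2 difference of 0.14. The files do not pair identifiers with gene names, so markers of gill cell types were not checked.

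Hypoxia-inducible factor alpha subunits are transcription factors of the basic helix-loop-helix PAS family. In vertebrate cells with enough oxygen, prolyl hydroxylases modify the alpha subunit and the von Hippel-Lindau protein directs it to degradation. When oxygen is low, the alpha subunit is stable, pairs with a beta subunit (ARNT) and binds hypoxia response elements of genes for oxygen supply and glycolysis. Much of this control acts on the protein, which was not measured here. HIF-2 alpha, also known as EPAS1, is known in mammals for the control of erythropoietin and for its role in endothelial cells. HIF-4 alpha is a name used for an alpha subunit described in fish. The gill takes up oxygen and exchanges ions with the water. The other genes of this pathway, such as the hydroxylases, ARNT and erythropoietin, could not be followed, because the paper's text does not give their identifiers and 0 identifiers of the files are found in the HZGC01 gene table.

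Each identifier holds the scaffold, the first and the last base of its locus, by which the first HIF-2 alpha locus spans 20495 bases of scaffold CI01000012 and is called the long locus below. The second, the short locus, spans 381 bases of the same scaffold. They are separated by 2627 bases, and no other listed locus lies between them. HIF-4 alpha spans 8863 bases of scaffold CI01000072. No build or exon structure behind these identifiers is given in the labels or the paper. In the HZGC01 gene table EPAS1 is represented by 2 genes, epas1a and epas1b, which lie on different chromosomes. Which of them corresponds to the neighbouring loci was not determined. The short and the long locus share their name and their place on the scaffold. They are therefore not treated as independent measurements of HIF-2 alpha. Whether they are parts of the same gene was not determined. Counts of loci below list both separately, so these are not counts of independent genes.

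Both factors were well expressed in gills. In the control fish the long HIF-2 alpha locus had 11.6, 12.02 and 14.8 FPKM. The short locus had 16.6, 15.1 and 15.9 FPKM in the same fish. HIF-4 alpha had 30.9, 31.9 and 34.9 FPKM. FPKM is already per length, and on that scale HIF-4 alpha was 2.36 to 2.67 times as high as the long HIF-2 alpha locus within each control fish. Over all 15 fish the long locus lay above 62.2% to 92.2% of the tested genes of its library, the short locus above 68.1% to 92.3% and HIF-4 alpha above 84.5% to 97.2%. From the lowest to the highest fish the FPKM differed 4.91-fold for the long locus, 3.82-fold for the short locus and 4.60-fold for HIF-4 alpha.

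**Figure D1:**
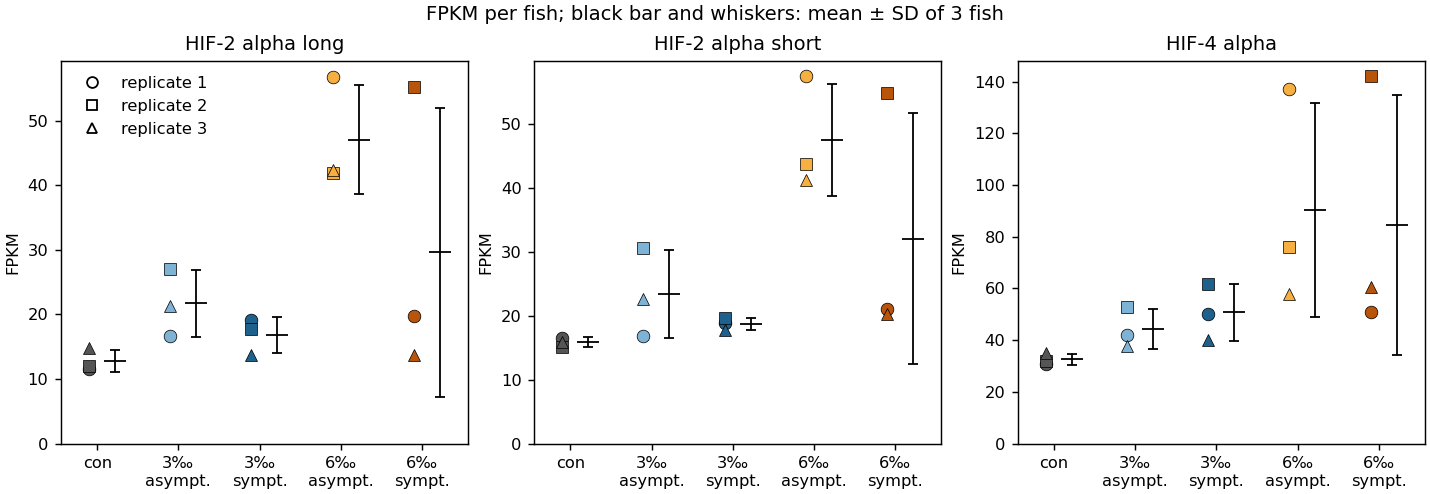
FPKM (vertical axis, from 0) of the long HIF-2 alpha locus, the short HIF-2 alpha locus and HIF-4 alpha in each fish of the 5 groups (horizontal axis), with the replicate number as the shape of the point and the mean ± SD of 3 fish beside them. Control fish lie between 11.6 and 14.8 FPKM in the long locus, the 6‰-treated asymptomatic fish between 41.9 and 56.8, and in the 6‰-treated symptomatic group replicate 2 stands far above replicates 1 and 3 in each panel.

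At 3‰ the asymptomatic fish had 16.7, 27.1 and 21.4 FPKM in the long HIF-2 alpha locus. Their short locus had 16.9, 30.6 and 22.5 FPKM. HIF-4 alpha had 41.8, 53.0 and 37.9 FPKM. Replicate 2 was the highest of the group in each locus, and the fish of this group lay above all control fish in each locus, by as little as 16.9 against 16.6 FPKM in the short locus. Against con, the log2 fold change on the log2(FPKM + 1) scale was 0.70 for the long locus (SE 0.38, adjusted p = 0.492 from limma). For the short locus it was 0.49 (SE 0.32, adjusted p = 0.547 from limma). For HIF-4 alpha it was 0.42 (SE 0.36, adjusted p = 0.641 from limma). DEGs (differentially expressed genes) are those past a fold change of 1.5 (0.58 on the log2 scale) with p below 0.05 before adjustment. By this threshold 0 of the 3 loci were up-regulated DEGs, as were 4.24% of all tested genes. All 3 loci were without overlap above con, and so were 14.2% of the tested genes. When only con and this group entered the fit, the long locus passed the threshold.

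In the 3‰-treated symptomatic fish the long HIF-2 alpha locus had 19.1, 17.7 and 13.7 FPKM. The short locus had 18.8, 19.5 and 17.8 FPKM. Both loci were thus closer to con than in the asymptomatic fish of this salinity, and the lowest fish of the long locus, replicate 3, lay below control replicate 3. HIF-4 alpha had 50.2, 61.9 and 40.1 FPKM, all above con. The log2 fold changes against con were 0.37 for the long locus (SE 0.38, adjusted p = 0.778 from limma), 0.23 for the short locus (SE 0.32, adjusted p = 0.846) and 0.60 for HIF-4 alpha (SE 0.36, adjusted p = 0.585). Again 0 of the 3 loci passed the DEG threshold, with 4.27% of all tested genes up-regulated. The short locus and HIF-4 alpha did not overlap con, as was the case upward for 9.59% of the tested genes. HIF-4 alpha passed the threshold when only con and this group entered the fit. In the fit over all 5 groups, the intervals of all 6 differences at 3‰ include 0. They reach a log2 fold change between 0.91 and 1.52, so a change of the size of the DEG threshold is not excluded for any locus. The spread in this fit is pooled over groups that differ in it. In the long locus the SD was 0.24 in this group and 1.01 in 6‰-treated symptomatic fish.

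The highest group means were found in the 6‰-treated asymptomatic fish. The long HIF-2 alpha locus had 56.8, 41.9 and 42.5 FPKM in these fish. The short locus had 57.5, 43.7 and 41.2 FPKM. Every fish of this group lay above every control fish and every 3‰-treated fish in both HIF-2 alpha loci. The loci were picked for higher values at 6‰ than at 3‰ in these fish, and the share of all tested genes with this order is not given here. HIF-4 alpha had 137, 76.0 and 58.0 FPKM, with replicate 1 far above the other fish, and replicate 3 below the highest 3‰-treated symptomatic fish.

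Against con these differences were 1.79 on the log2 scale for the long locus (SE 0.38, adjusted p = 0.0437 from limma), which is 3.47-fold. The short locus changed by 1.51 (SE 0.32, adjusted p = 0.0437 from limma), or 2.85-fold. HIF-4 alpha changed by 1.35 (SE 0.36, adjusted p = 0.0955 from limma), or 2.55-fold. All 3 loci were up-regulated DEGs, where 7.1% of the tested genes were, and all 3 were without overlap above con, where 18.3% were. The short and the long locus both enter these counts, although they may be parts of the same gene. Both HIF-2 alpha loci passed an adjusted p of 0.05, as did 1.18% of the tested genes. The loci had been picked for high values in these same 6‰-treated fish, so their p-values, ranks and counts are not independent evidence of a change. Ordered by log2 fold change, the long locus was at rank 162, the short locus at 248 and HIF-4 alpha at 340 among 24647 genes. All 3 remained DEGs whichever fish of con or of this group was left out, with log2 fold changes of 1.65 to 1.89 for the long locus, 1.37 to 1.60 for the short locus and 1.01 to 1.62 for HIF-4 alpha. The lowest of these values were those without 6‰-treated asymptomatic replicate 1. The adjusted p of both HIF-2 alpha loci was less stable, since it rose above 0.05 without any single fish of both groups (0.0638 to 0.184, limma) and stayed below 0.05 in only 3 of 8 other settings for the long and 2 of 8 for the short locus. In gill tissue a change of RNA per cell and a change in the number of cells that make the RNA cannot be told apart.

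**Figure D2:**
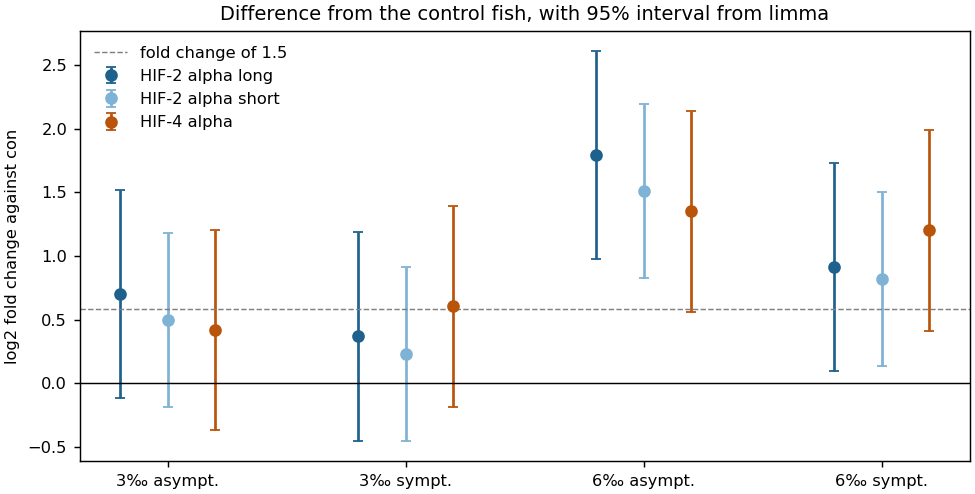
Log2 fold change against con on the log2(FPKM + 1) scale (vertical axis) of the 3 loci in the 4 treated groups (horizontal axis), with the 95% interval from limma as whiskers and a dashed line at a fold change of 1.5. The intervals are those of the fit over all 5 groups, with 1 estimate of the spread for each locus. In the long locus the SD was 0.18 in con and 1.01 in 6‰-treated symptomatic fish. In this fit the intervals include 0 in both 3‰-treated groups and lie above 0 in both 6‰-treated groups. The highest value, 1.79, is that of the long HIF-2 alpha locus in 6‰-treated asymptomatic fish. With only the groups compared, p (limma) in 6‰-treated symptomatic fish was 0.103 for the long and 0.074 for the short locus. At 3‰ it was 0.013 for the long locus and 0.042 for HIF-4 alpha in asymptomatic fish, and 0.020 for HIF-4 alpha in symptomatic fish.

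The 6‰-treated symptomatic fish were unlike each other. The long HIF-2 alpha locus had 19.8, 55.3 and 13.7 FPKM in replicates 1, 2 and 3. The short locus had 21.1, 54.7 and 20.2 FPKM. Replicate 2 was thus at the level of the 6‰-treated asymptomatic fish, while replicates 1 and 3 were at the level of the 3‰-treated fish, and replicate 3 was below control replicate 3 in the long locus. HIF-4 alpha had 51.0, 142 and 60.5 FPKM, where replicate 2 was the highest of all 15 fish. The SD on the log2 scale was 1.01 for the long locus, 0.79 for the short locus and 0.78 for HIF-4 alpha in this group, against 0.18, 0.064 and 0.088 in con. Replicate 2 exceeded the mean log2 value of replicates 1 and 3 by 1.69 in the long locus, 1.36 in the short locus and 1.34 in HIF-4 alpha. A difference of at least 1 was found in 1.96% of the tested genes, and replicate 2 was above both other fish in 20.7%, with a median difference of 0.012 over all tested genes. The library of replicate 1 is the one most similar to a 3‰-treated symptomatic library. Its deviations from the group means had a correlation of 0.54 with those of 3‰-treated symptomatic replicate 1. Between both replicates 3 it was 0.51, and between both replicates 2 it was -0.0087. Replicate 1 at 6‰ and replicate 3 at 3‰ had -0.56, and replicate 3 at 6‰ and replicate 1 at 3‰ had -0.50. The deviations of the 3 fish of a group sum to 0, so these values depend on each other. Control replicate 3 had 0.41 with 6‰-treated symptomatic replicate 1 and -0.47 with 3‰-treated symptomatic replicate 3. Over all groups, 10 of 30 same-number pairs and 17 of 60 other pairs were over 0.1. Whether replicate numbers pair the symptomatic fish of both salinities was not tested.

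Against con the log2 fold change of this group was 0.91 for the long locus (SE 0.38, adjusted p = 0.454 from limma), 0.82 for the short locus (SE 0.32, adjusted p = 0.406) and 1.20 for HIF-4 alpha (SE 0.36, adjusted p = 0.267). All 3 loci were up-regulated DEGs, where 4.02% of the tested genes were. The loci were picked for higher values at 6‰ in these same fish, so this count is not independent evidence of a change. The short and the long locus may also be parts of the same gene. The short locus and HIF-4 alpha were without overlap above con, as were 7.16% of the tested genes. The HIF-2 alpha calls rested on single fish. Without replicate 2 of the treated group the log2 fold change was 0.35 for the long locus and 0.36 for the short locus, and neither was a DEG. The long locus was also no DEG without control replicate 1 (0.85) or control replicate 2 (0.88), and the short locus without control replicate 2 (0.79). When only con and this group entered the fit, both HIF-2 alpha loci again missed the threshold. HIF-4 alpha stayed a DEG in all of these fits, and its lowest log2 fold change was 0.75, without 6‰-treated symptomatic replicate 2. The 4 comparisons with con use the same 3 control fish.

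**Figure D3:**
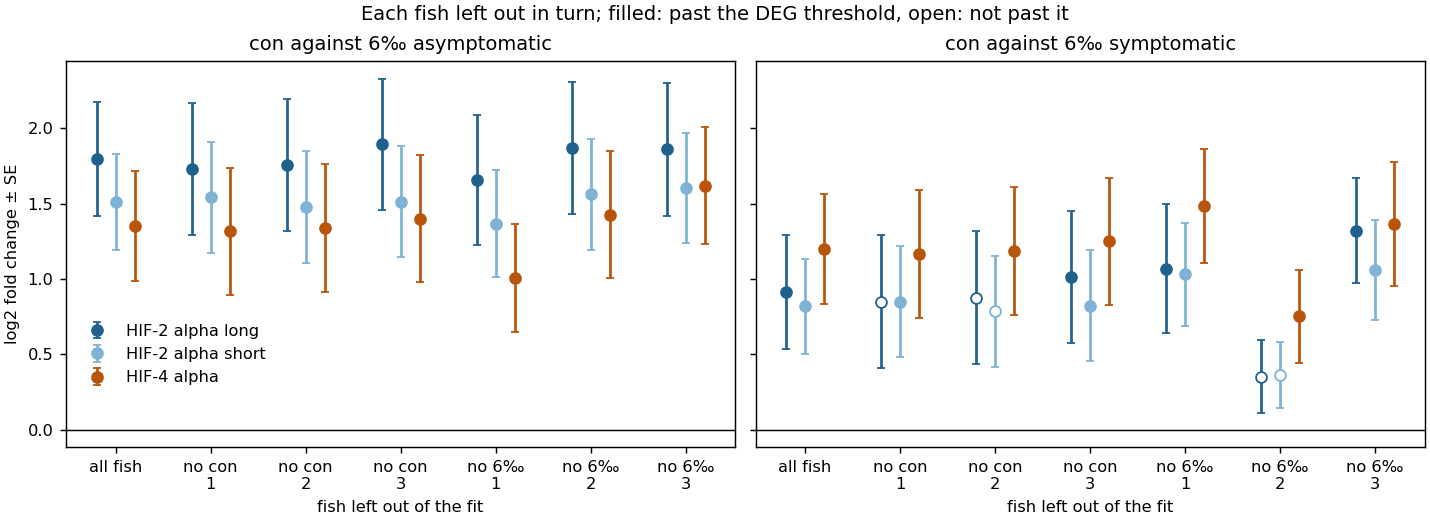
Log2 fold change ± SE against con (vertical axis) of the 3 loci in 6‰-treated asymptomatic fish (left) and 6‰-treated symptomatic fish (right), with all fish and with each fish left out in turn (horizontal axis). Filled points passed the DEG threshold and open points did not. On the left all points are filled, and on the right the HIF-2 alpha loci fall to 0.35 and 0.36 without replicate 2.

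Symptomatic and asymptomatic fish were compared within each salinity. Symptoms were observed and not assigned. At 3‰ the log2 value of symptomatic minus that of asymptomatic fish was -0.34 in the long locus (SE 0.38, adjusted p = 0.754 from limma) and -0.27 in the short locus (SE 0.32, adjusted p = 0.768), and 0.19 in HIF-4 alpha (SE 0.36, adjusted p = 0.868). The 95% intervals ran from -1.16 to 0.48, from -0.95 to 0.42 and from -0.60 to 0.97. The fish of both groups overlapped in each locus and 0 of the 3 loci were DEGs, where 5.04% of the tested genes were. At 6‰ the difference was -0.88 in the long locus (SE 0.38, adjusted p = 0.435 from limma) and -0.69 in the short locus (SE 0.32, adjusted p = 0.459), and both were DEGs, as were 3.23% of the tested genes in this direction. HIF-4 alpha had a value of -0.15 (SE 0.36, adjusted p = 0.888), with a 95% interval from -0.94 to 0.64. The fish overlapped in each locus, and for HIF-2 alpha it was symptomatic replicate 2 that lay within the range of the asymptomatic fish. Both calls were lost when any fish but symptomatic replicate 2 was left out, with log2 differences between -0.96 and -0.45, and were larger without that fish, at -1.44 and -1.15. A fit of these 2 groups alone did not call them either.

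Whether the difference between symptomatic and asymptomatic fish differed between salinities was tested as an interaction. Its log2 value, the difference at 6‰ minus that at 3‰, was -0.54 for the long locus (SE 0.53), -0.43 for the short locus (SE 0.45) and -0.34 for HIF-4 alpha (SE 0.52), each with an adjusted p of 1.0 from limma. By this test 0 of the 3 loci passed, where 3% of the tested genes passed the threshold without adjustment. Without 6‰-treated symptomatic replicate 2 it was -1.11 for the long locus and -0.88 for the short locus, which passed the unadjusted threshold, with an adjusted p of 1.0 for each.

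Between the salinities, for which the loci were picked, the 6‰-treated asymptomatic fish were above the 3‰-treated asymptomatic fish by 1.09 on the log2 scale in the long locus (SE 0.38), 1.02 in the short locus (SE 0.32) and 0.93 in HIF-4 alpha (SE 0.36). Every 6‰-treated asymptomatic fish was above every 3‰-treated asymptomatic fish in each locus, as was the case for 10.8% of the tested genes. In symptomatic fish the difference was 0.55 (SE 0.38), 0.59 (SE 0.32) and 0.60 (SE 0.36), and without 6‰-treated symptomatic replicate 2 it was -0.015, 0.14 and 0.15. The difference in symptomatic fish thus came down to little when a single fish was left out, while in asymptomatic fish the lowest values with a fish left out were 0.93, 0.81 and 0.59.

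Ordered by the mean log2 value, the groups of both HIF-2 alpha loci stood, from low to high, as con, 3‰-treated symptomatic, 3‰-treated asymptomatic, 6‰-treated symptomatic and 6‰-treated asymptomatic fish. HIF-4 alpha had the same lowest and the same 2 highest groups, with the order of both 3‰-treated groups exchanged. Neighbours in this order mostly overlapped. The gap from con to the next group was 0.37 in the long locus, with overlap, and 0.23 in the short locus and 0.42 in HIF-4 alpha, without overlap. All other neighbouring groups overlapped, with gaps of 0.15 to 0.88 against a larger group SD of 0.31 to 1.01. All 12 treated fish were above all control fish in the short locus and in HIF-4 alpha, which held for 0.884% of the tested genes. In the long locus 10 of the 12 treated fish were. The loci were picked for high values in the 6‰-treated fish among these, so the share of 0.884% is not an independent background. The margin in the short locus was 16.9 against 16.6 FPKM (4.160 against 4.134 on the log2 scale), from 3‰-treated asymptomatic replicate 1. In that group the median log2 fold change of all tested genes against con was 0.098. The separation was not examined under another scaling.

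The neighbouring HIF-2 alpha loci followed each other closely. On the log2(FPKM + 1) scale Pearson's r was 0.978 over the 15 fish and Spearman's rho 0.921. Without the 2 fish farthest from the median of the long locus, 6‰-treated asymptomatic replicate 1 and 6‰-treated symptomatic replicate 2, r was 0.956. Among the 24646 other tested genes the short locus had the highest r with the long locus, where the median r was 0.09, as a description of loci taken from one cluster. Pooled over the groups, the deviations from the group means had an r of 0.939. The 6‰-treated symptomatic fish had the widest spread in both loci (SD 1.01 and 0.79) and so weigh most in this value. In con the highest fish was replicate 3 in the long locus and replicate 1 in the short locus. The relation was not examined in each group alone.

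The ratio of the short to the long locus lay between 0.97 and 1.13 in 11 fish, so that FPKM was nearly equal there. In the 4 fish with the lowest FPKM in the long locus, control replicates 1 and 2, 3‰-treated symptomatic replicate 3 and 6‰-treated symptomatic replicate 3, it was 1.25 to 1.48. In these 4 fish the long locus had 11.6 to 13.7 FPKM, and the short locus was higher by 3.04 to 6.53 FPKM. The ratio contains the long locus as its denominator, so a low long locus raises it by construction. The change against con was smaller in the short than in the long locus in each treated group. The within-group SD on the log2 scale was smaller in the short than in the long locus in con and in both symptomatic groups and larger in both asymptomatic groups (0.41 against 0.33 at 3‰ and 0.252 against 0.243 at 6‰).

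HIF-2 alpha and HIF-4 alpha were highest in the same 2 fish, 6‰-treated asymptomatic replicate 1 and 6‰-treated symptomatic replicate 2. Among the other fish the order differed. HIF-4 alpha had 60.5 FPKM in 6‰-treated symptomatic replicate 3, with 13.7 in the long locus. In 6‰-treated asymptomatic replicate 3 it had 58.0 FPKM, with 42.5 in the long locus. Between the long HIF-2 alpha locus and HIF-4 alpha r was 0.857 and rho 0.757. Between the short locus and HIF-4 alpha r was 0.879 and rho 0.836. No p is given for these values, because the loci were picked for a trend they shared in these fish. Without the 2 highest fish r fell to 0.696 and 0.727. Pooled over the groups, the deviations from the group means had an r of 0.814 and 0.848, where the 6‰-treated symptomatic fish again had the widest spread. In the 9 control and 3‰-treated fish alone r was 0.696 with the long locus and 0.586 with the short locus, and in the 6 fish at 6‰ it was 0.742 and 0.812. The points share libraries, whose scaling acts on all genes alike. A sequencing batch is not named in the labels.

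**Figure D4:**
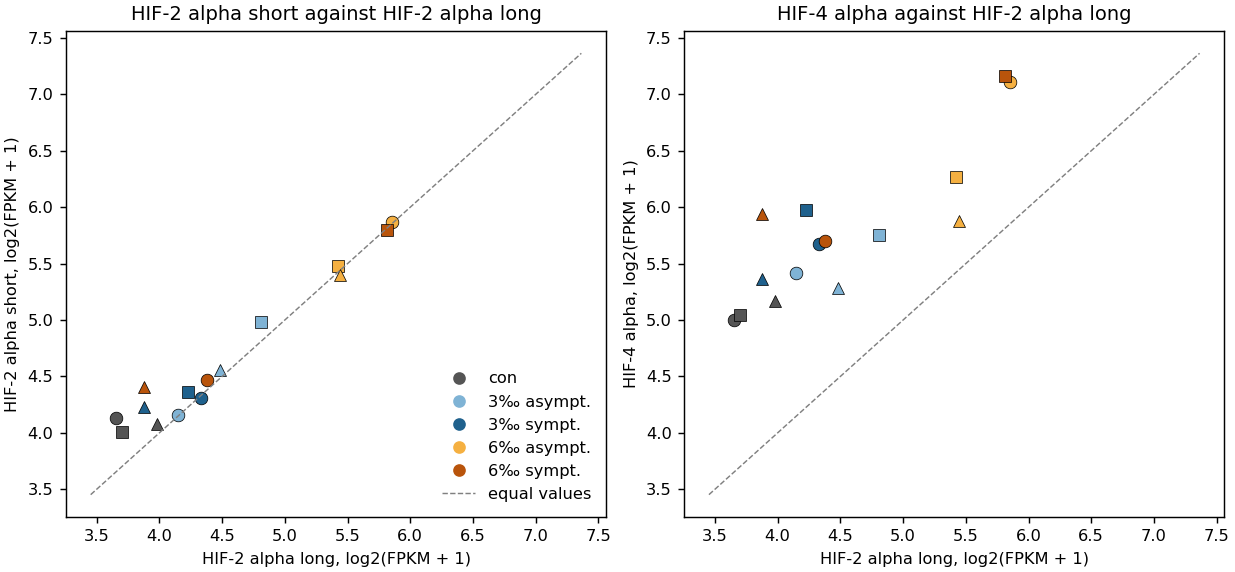
Short HIF-2 alpha locus (left) and HIF-4 alpha (right) against the long HIF-2 alpha locus, all as log2(FPKM + 1), with a point per fish, the group as colour and the replicate number as shape (circle 1, square 2, triangle 3), and a dashed line of equal values. On the left the points follow the line (r = 0.978) and rise above it at the lowest values. On the right they lie above the line with a wider spread (r = 0.857), and 6‰-treated symptomatic replicate 3 is the fish farthest above it.

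The proportion of both factors differed between fish. HIF-4 alpha was 1.36 to 4.42 times as high as the long HIF-2 alpha locus, with a median of 2.57. The mean ratio was 2.56 ± 0.17 (SD, n = 3) in con. At 3‰ it was 2.08 ± 0.38 without and 3.02 ± 0.44 with symptoms, and at 6‰ it was 1.86 ± 0.53 without and 3.19 ± 1.06 with symptoms. The lowest ratio was that of 6‰-treated asymptomatic replicate 3 and the highest that of 6‰-treated symptomatic replicate 3. At 3‰ each symptomatic fish had a higher ratio than each asymptomatic fish, and the same held at 6‰. The margin was 2.62 against 2.50 at 3‰ and 2.57 against 2.41 at 6‰. The long locus is the denominator, so its lower mean in symptomatic fish (log2 difference -0.34 at 3‰ and -0.88 at 6‰) raises the ratio by construction. HIF-4 alpha differed by 0.19 and -0.15. This order was noticed in the data and was not tested.

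To see whether the change was shared along the scaffold, the 5 nearest listed loci on each side were compared. Around HIF-2 alpha 8 of these 10 loci passed the filter, and in 6‰-treated asymptomatic fish their log2 fold change against con lay between -0.85 and 0.70 with a median of 0.21. Of the 8 loci 1 was a DEG, in the opposite direction to HIF-2 alpha, where 10.4% of all tested genes were DEGs in either direction. This was CI01000012_01601665_01604244, with a change of -0.85 (adjusted p = 0.289 from limma). The nearest locus on this side, CI01000012_01452947_01472013, begins 16.861 kb behind the short locus and had a log2 fold change of 0.10 (SE 0.14). The nearest before the long locus, CI01000012_01322824_01387494, lies more than 25 kb before it and had a value of 0.24 (SE 0.23). Around HIF-4 alpha 8 of 10 loci passed the filter, their log2 fold changes lay between -0.03 and 0.64 with a median of 0.08, and 0 were DEGs. Its nearest neighbours, CI01000072_02041267_02050950 and CI01000072_02074797_02106818, had values of -0.03 (SE 0.15) and 0.02 (SE 0.17). Over the 15 fish the r of the surrounding loci with the factor beside them was -0.50 to 0.51 for the long HIF-2 alpha locus and -0.06 to 0.55 for HIF-4 alpha. On this scale both factors stood above every tested locus around them in this comparison. The factors were picked for high values at 6‰ and the surrounding loci by position only, so this order is not independent evidence. The tested loci around HIF-2 alpha had means of 1.59 to 9.22 FPKM, where a pseudocount of 1 makes log2 fold changes smaller. The median log2 fold change of all tested genes was 0.08.

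**Figure D5:**
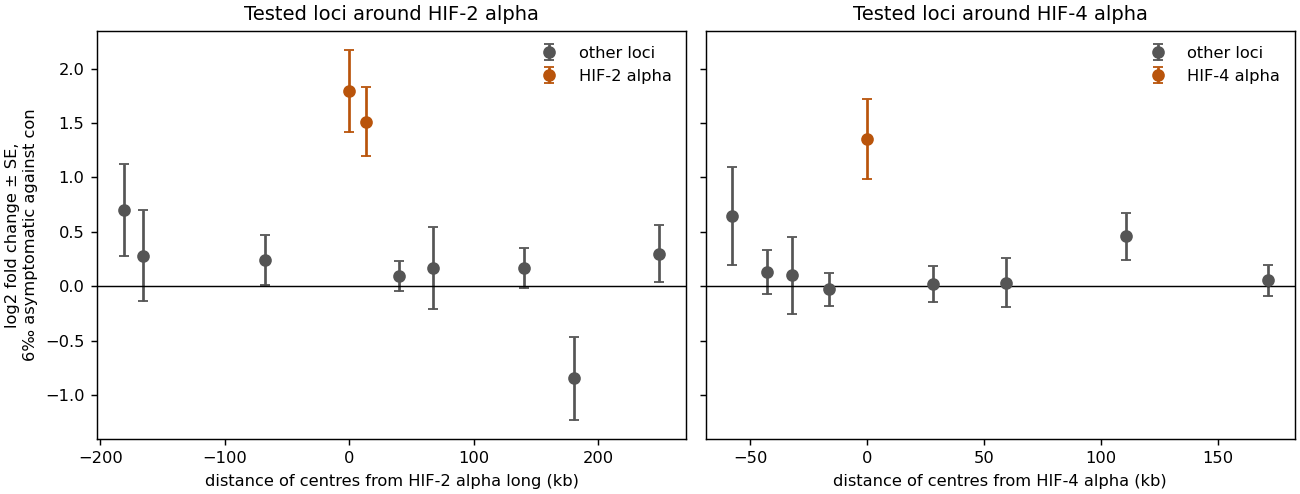
Log2 fold change ± SE of 6‰-treated asymptomatic fish against con (vertical axis) for the tested loci around HIF-2 alpha (left) and HIF-4 alpha (right), by the distance of their centres in kb (horizontal axis). The hypoxia-inducible factor loci lie at 1.79, 1.51 and 1.35, and the surrounding loci at or below 0.70. The former were picked for high values at 6‰, the latter by position only.

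The genes with the pattern most like each locus over the 15 fish were taken by Pearson's r on log2(FPKM + 1). For the long HIF-2 alpha locus they were CI01000192_00315657_00323729 (r = 0.933), CI01000146_01393005_01411381 (0.932), CI01000190_01008838_01011938 (0.927), newGene_16161 (0.925) and CI01000063_02350026_02353930 (0.912). All 5 were less like it than the short locus. For the short locus they were CI01000146_01393005_01411381 (r = 0.938), CI01000320_00361162_00382246 (0.923), CI01107479_00000005_00000672 (0.922), CI01000192_00315657_00323729 (0.911) and CI01000319_02286236_02293917 (0.909), so that 2 of the 5 were shared by both HIF-2 alpha loci. For HIF-4 alpha they were CI01000021_05928007_05937412 (r = 0.944), CI01000344_01570261_01591115 (0.936), CI01000010_07601748_07624518 (0.935), CI01000305_00151149_00155613 (0.910) and CI01000340_07451476_07454866 (0.908), and 0 of these were among the 5 of either HIF-2 alpha locus. CI01000021_05928007_05937412, the gene most like HIF-4 alpha, ranged from 3.36 to 39.2 FPKM, and CI01000190_01008838_01011938 from 28.0 to 185 FPKM. These genes were selected from all tested genes by their r, and their identifiers carry no gene name here.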

How the data were processed

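RNA-seq of gills was available for 15 fish. The values are FPKM as deposited by the authors, for 40116 genes in each library. The library kit differs between paper (TruSeq) and labels (NEBNext), and the paper names a de novo assembly with Trinity while most identifiers are genome loci. For aligner, build and counting: not given in the sources used here. A line of annotation text per file was removed. FPKM keeps no read count, so the depth behind a value is unknown.

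Groups were compared on log2(FPKM + 1), a pseudocount of 1, with limma 3.58.1 in R 4.3.3, in 1 fit over the 5 groups (10 residual and 2.64 prior degrees of freedom) for the 24647 genes with a mean of at least 0.5 FPKM. p-values were adjusted over all of these genes by Benjamini-Hochberg. The paper gives the fold change of 1.5 and the p below 0.05, and does not say whether p is adjusted. The median log2 fold change of all tested genes against con was 0.03 to 0.10. Pearson's r was computed with numpy 2.4.6 and Spearman's rho with scipy 1.17.1. Planned permutation p-values of the correlations are not reported, because the study took the loci from a cluster with a shared trend. The fit was also run on simulated data with noise drawn independently for each gene and fish, unlike these libraries. The outcome is not given here, and no result rests on it.

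The members and lists were chosen with earlier results of these data known. Named genes are the 3 loci, the 5 nearest loci on each side and the 5 genes with the highest r for each locus. CI01000012_01601665_01604244 is 1 of these neighbours. The alternatives were the adjusted p, only the groups compared, no filter or a mean of at least 1 FPKM, median-ratio and quantile scaling, pseudocounts of 0.1 and 0.01, a block for the replicate number and leaving out each fish. Correlations were also computed without a logarithm, in treated fish only, on deviations from the group means, and, chosen after seeing the data, in the 9 fish without and the 6 fish with 6‰. The lists of pathway genes and gill cell markers were not used, because no table paired them with the identifiers.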

Additional observations from a re-analysis of the deposited data

How the results depend on the processing

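The number of reads behind each FPKM is unknown, and 3 fish per group limit every comparison. Apart from leaving out single fish, 173 values of the tested comparisons kept their direction and their side of the threshold under the alternatives. Of the others, 14 no longer passed it, 2 newly passed it and 0 reversed. The adjusted p, only the groups compared, the other filters and the block for the replicate number leave every log2 fold change unchanged. For the long locus in 6‰-treated asymptomatic fish against con it was 1.79 in each, so direction was not tested there. With the adjusted p a value is also unable to pass newly. Direction was tested only by median-ratio scaling (1.70 for the same value), quantile scaling (1.74) and pseudocounts of 0.1 and 0.01 (1.87 each). The cause of each change of call was not tested.

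With an adjusted p below 0.05 as the threshold, the calls lost were HIF-4 alpha in 6‰-treated asymptomatic fish against con (1.35), the long, the short and the HIF-4 alpha locus in 6‰-treated symptomatic fish against con (0.91, 0.82 and 1.20), and both HIF-2 alpha loci between symptomatic and asymptomatic fish at 6‰ (-0.88 and -0.69). In 6‰-treated asymptomatic fish against con the adjusted p (limma) was 0.0187 to 0.0673 for the long, 0.0241 to 0.0657 for the short and 0.0951 to 0.13 for the HIF-4 alpha locus over the 8 other settings, and stayed below 0.05 in 3, 2 and 0 of them. With only the groups compared in the fit, the long locus passed in 3‰-treated asymptomatic fish (0.70) and HIF-4 alpha in 3‰-treated symptomatic fish (0.60). The calls lost there were both HIF-2 alpha loci in 6‰-treated symptomatic fish against con (0.91 and 0.82) and between symptomatic and asymptomatic fish at 6‰ (-0.88 and -0.69). The last call of the short locus was also lost with no filter (-0.69), with median-ratio scaling (-0.65) and with a pseudocount of 0.1 (-0.71) or 0.01 (-0.72). Over fewer fish the correlations with HIF-4 alpha were 0.742 for the long locus at 6‰, 0.812 for the short locus at 6‰ and 0.586 for the short locus without 6‰.

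With a fish left out, the values for the long, the short and the HIF-4 alpha locus were as follows. For 3‰-treated asymptomatic fish against con they ranged from 0.54 to 0.87, 0.29 to 0.70 and 0.28 to 0.52, and for 3‰-treated symptomatic fish from 0.27 to 0.50, 0.19 to 0.26 and 0.45 to 0.76. For 6‰-treated symptomatic fish against con they ranged from 0.35 to 1.32, 0.36 to 1.06 and 0.75 to 1.49. Between symptomatic and asymptomatic fish they ranged from -0.50 to -0.17, -0.47 to -0.059 and 0.033 to 0.34 at 3‰, and from -1.44 to -0.47, -1.15 to -0.45 and -0.60 to 0.19 at 6‰. The last, of HIF-4 alpha, was above 0 without 6‰-treated asymptomatic replicate 1 (0.19) and without symptomatic replicate 1 (0.13) or 3 (0.012). The interaction ranged from -1.11 to -0.14, -0.88 to -0.18 and -0.78 to 0.0096, where the last value is that without 6‰-treated asymptomatic replicate 1. From 3‰ to 6‰ the difference ranged from 0.93 to 1.26, 0.81 to 1.23 and 0.59 to 1.20 in asymptomatic fish, and from -0.015 to 0.95, 0.14 to 0.83 and 0.15 to 0.88 in symptomatic fish. Correlations ranged from 0.971 to 0.985 for the long and short locus, 0.809 to 0.901 for the long locus and HIF-4 alpha, and 0.834 to 0.911 for the short locus and HIF-4 alpha.

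Each group holds each replicate number, so using the number as a block (replicate block) could not change a log2 fold change. That of the long locus in 6‰-treated asymptomatic fish against con was 1.79. No call at the unadjusted threshold changed, while the adjusted p (limma) of the long and the short locus in this comparison became 0.057 and 0.053. The 30 same-number pairs had a median correlation of -0.0095 between deviations from the group means, with 10 over 0.1. The 60 other pairs had 0.019, with 17 over 0.1.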
